A study of Mus musculus with 2 samples.

Results

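Cxcl9-positive interferon macrophages are tumor macrophages that carry RNA of Cxcl9, a chemokine that macrophages make when interferon gamma reaches them. Among 18539 kept cells of 2 libraries, 369 met the rule: 160 of 8444 in the Control library and 209 of 10095 in the DOPAC library. A barcode was kept from 500 UMIs (each marks 1 captured transcript) and 200 genes upward, if mitochondrial genes gave no more than 10% of its UMIs. It then needed a UMI of Csf1r, at least 2 UMIs of Lyz2, Cd68 and Adgre1 together, at least 3 Cxcl9 UMIs per 10000 of its UMIs and fewer than 5 per 10000 of Arg1. Cells with any UMI of the dendritic genes Flt3, Cd209a and Xcr1, of the T-cell genes Cd3d, Cd3e and Cd3g, or of the B-cell gene Cd79a were left out. These measured values chose the cells, so their levels of these genes are a description with no test.

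The cells came from tumors of B16-F10, a mouse melanoma line, in mice labelled WT, and were sorted for CD45, the surface mark of leukocytes. Control mice received vehicle, and DOPAC mice were given the dopamine metabolite 3,4-dihydroxyphenylacetic acid. The 4 mice of a group were pooled into 1 library with no tag for the mouse, so no difference between the libraries has a replicate check, no p-value is given, and a difference between the treatments cannot be told apart from one between the 2 preparations. The labels call the cells lymphocytes and the protocol text speaks of colon, whereas the tissue label and the design name tumor. All intervals are 95% intervals that cover counting error only.

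Interferon gamma, which T cells and NK cells secrete, binds its receptor on macrophages, and the signal turns on genes through a DNA element called GAS. A related element, ISRE, is used after type I interferon and also serves the response to interferon gamma. The induced genes include Cxcl9 and Cxcl10, whose products draw T cells and NK cells with the receptor CXCR3, guanylate binding proteins and immunity-related GTPases, which attack microbes held in vacuoles, and genes of antigen presentation.

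The sequences before the genes that mark these cells are shown because interferon-induced genes are read through such elements. Each is the 250 bases before the gene start in RefSeq (GRCm38.p6), 5′ to 3′ on the gene's strand, in lower case. Capitals mark GAS (TTCNNNGAA, the same on both strands) and an ISRE core (GAAANNGAAA, or TTTCNNTTTC when read on the other strand). No GAS overlapped an ISRE core in the windows printed. The windows are chr5:92328080-92328329 for Cxcl9 and chr5:92348890-92349139 for Cxcl10, both on the minus strand, and chr3:142620413-142620662 for Gbp2 and chr14:103046762-103047011 for Acod1, both on the plus strand. The genes themselves span chr5:92321347-92328079, chr5:92346638-92348889, chr3:142620602-142638008 and chr14:103046977-103056573 in the GRCm38 annotation. The other markers are Ly6i at chr15:74979534-74983430 and Cfb at chr17:34856374-34862518.
Cxcl9: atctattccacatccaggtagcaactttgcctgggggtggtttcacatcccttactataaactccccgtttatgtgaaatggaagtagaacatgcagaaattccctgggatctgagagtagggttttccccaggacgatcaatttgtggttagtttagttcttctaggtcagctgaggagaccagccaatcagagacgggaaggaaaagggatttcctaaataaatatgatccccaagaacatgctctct
Cxcl10: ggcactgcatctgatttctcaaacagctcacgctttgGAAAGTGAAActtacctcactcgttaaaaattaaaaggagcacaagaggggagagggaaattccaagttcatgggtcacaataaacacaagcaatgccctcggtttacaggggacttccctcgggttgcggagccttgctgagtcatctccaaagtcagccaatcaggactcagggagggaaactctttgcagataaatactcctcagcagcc
Gbp2: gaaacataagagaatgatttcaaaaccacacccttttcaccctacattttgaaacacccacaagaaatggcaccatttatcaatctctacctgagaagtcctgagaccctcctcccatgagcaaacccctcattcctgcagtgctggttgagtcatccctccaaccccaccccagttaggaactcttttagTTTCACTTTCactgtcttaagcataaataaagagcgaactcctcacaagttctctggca
Acod1: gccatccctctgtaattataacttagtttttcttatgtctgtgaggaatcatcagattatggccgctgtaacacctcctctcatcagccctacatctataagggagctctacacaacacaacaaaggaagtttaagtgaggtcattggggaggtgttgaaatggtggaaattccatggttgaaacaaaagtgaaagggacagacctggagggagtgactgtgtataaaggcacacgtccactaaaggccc
Neither element is in these letters before Cxcl9 and Acod1. Cxcl10 held 1 ISRE core from 213 to 204 bases before its start, and Gbp2 held 1 from 59 to 50.

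Immunity-related GTPases are shown next because this list had the largest median difference between the libraries among the interferon lists of these macrophages. The windows are chr11:48871421-48871670 for Irgm1 and chr11:49064213-49064462 for Tgtp2, both on the minus strand, and chr11:58214727-58214976 for Irgm2 on the plus strand.
Irgm1: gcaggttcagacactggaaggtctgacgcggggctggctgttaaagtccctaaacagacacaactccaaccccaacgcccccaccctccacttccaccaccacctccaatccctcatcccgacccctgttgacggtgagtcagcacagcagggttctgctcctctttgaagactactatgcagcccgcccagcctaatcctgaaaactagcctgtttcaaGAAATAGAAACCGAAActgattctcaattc
Irgm2: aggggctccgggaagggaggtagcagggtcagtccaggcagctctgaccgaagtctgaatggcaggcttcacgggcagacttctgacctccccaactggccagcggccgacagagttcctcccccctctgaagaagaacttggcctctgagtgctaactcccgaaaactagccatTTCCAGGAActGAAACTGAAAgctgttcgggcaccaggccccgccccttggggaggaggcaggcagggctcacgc
Tgtp2: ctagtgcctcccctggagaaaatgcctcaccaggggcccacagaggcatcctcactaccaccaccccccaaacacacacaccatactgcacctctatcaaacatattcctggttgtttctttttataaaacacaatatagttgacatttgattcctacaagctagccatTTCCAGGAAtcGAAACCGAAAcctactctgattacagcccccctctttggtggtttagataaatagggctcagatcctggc
Irgm2 held a GAS from 75 to 67 bases before its start and an ISRE core from 64 to 55, and Tgtp2 a GAS from 81 to 73 and an ISRE core from 70 to 61. Irgm1 held 2 ISRE cores that overlap, from 30 to 21 and from 24 to 15. Of 7 genes of the list with a window, 5 held a GAS and 6 an ISRE core. Of 5 guanylate binding protein genes with one, 2 held a GAS and 5 an ISRE core, and of 23 type I interferon genes, 2 and 11. Among all 27025 genes with a window, 7.18% held a GAS and 3.04% an ISRE core. A match describes letters and is no measure of binding.

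The Control members held 1988324 UMIs, with a median of 11113.5 per cell, and the DOPAC members 1003493, with a median of 4359. Kept cells as a whole had medians of 9571.5 and 3677 UMIs. The libraries share 32 cell barcodes. A doublet caller marked 2 Control and 3 DOPAC members, which stayed in. A single Cxcl9 UMI carried 1 Control and 12 DOPAC members into the gate, and 2 UMIs carried 2 and 19.

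The cells carried the genes of the label beyond those of the rule. Levels are given as CPM, the UMIs of a gene per 1000000 UMIs summed over the cells of a class in 1 library. Cxcl10 stood at 2132 CPM in Control and 2023 CPM in DOPAC members. Gbp2, a guanylate binding protein, stood at 934 and 935 CPM, and Acod1, which makes itaconate, at 969 and 1036 CPM. Both libraries were alike in these 3 genes. Cfb, a complement factor, stood at 132 and 132 CPM and Ly6i, of the Ly6 surface proteins, at 113 and 230.2 CPM. With every cell thinned to 2000 UMIs, 92.5% of 160 Control and 96.5% of 199 DOPAC members had a UMI of at least 1 of these 5 genes (10 DOPAC members were too shallow). At least 3 of them were found in 54.8% of DOPAC members and in 72 of the 160 Control members. In the other classes at least 3 were found in 5.66% (C1q-high), 6.47% (Arg1-high) and 9.28% (monocytes) of Control cells, and in 15.6%, 20.5% and 26.3% of DOPAC cells. A UMI of at least 1 was also common there, in 91.7% of DOPAC monocytes. Cfb alone hardly set the members apart in DOPAC, where 20.6% of members and 17.8% of C1q-high macrophages had a UMI of it after thinning. In Control these shares were 22.5% and 7.85%. Acod1 alone set them apart little in DOPAC too. After thinning, 69.8% of DOPAC members, 62.4% of monocytes and 60.3% of Arg1-high macrophages had a UMI of it. For Acod1 the Control shares were 65.6%, 42.6% and 39.6%. The rule set the levels of its own macrophage genes, such as Lyz2 at 7706 and 5785 CPM, and removed cells with Cd3 or Cd79a, so those levels do not bear on the label lymphocyte.

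At the gate used, the share of a library taken by these macrophages was alike, but their share of macrophages was not. Of kept cells they made up 1.89% (1.61 to 2.21) in Control and 2.07% (1.80 to 2.37) in DOPAC. The difference was 0.175 points (-0.232 to 0.576). Cells that pass the gate without its Cxcl9 and Arg1 conditions, called gated macrophages, made up 20.3% (19.5 to 21.2) in Control and 6.24% (5.78 to 6.73) in DOPAC. Among gated macrophages, Cxcl9-positive cells were 160 of 1717 in Control, 9.32% (7.98 to 10.8), and 209 of 630 in DOPAC, 33.2% (29.5 to 37.0). That difference was 23.9 points (20.001 to 27.8), and it lay between 17.3 and 26.1 points under 10 other settings of the gate. The difference in share of kept cells depended on the gate and on depth. It was -0.463 points when 3 Cxcl9 UMIs were required whatever the depth, and 1.60 points without the Csf1r condition. With cells thinned to 2000 UMIs before the gate, the shares were 1.22% and 1.87%, a difference of 0.646 points (0.270 to 1.03).

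**Figure D1:**
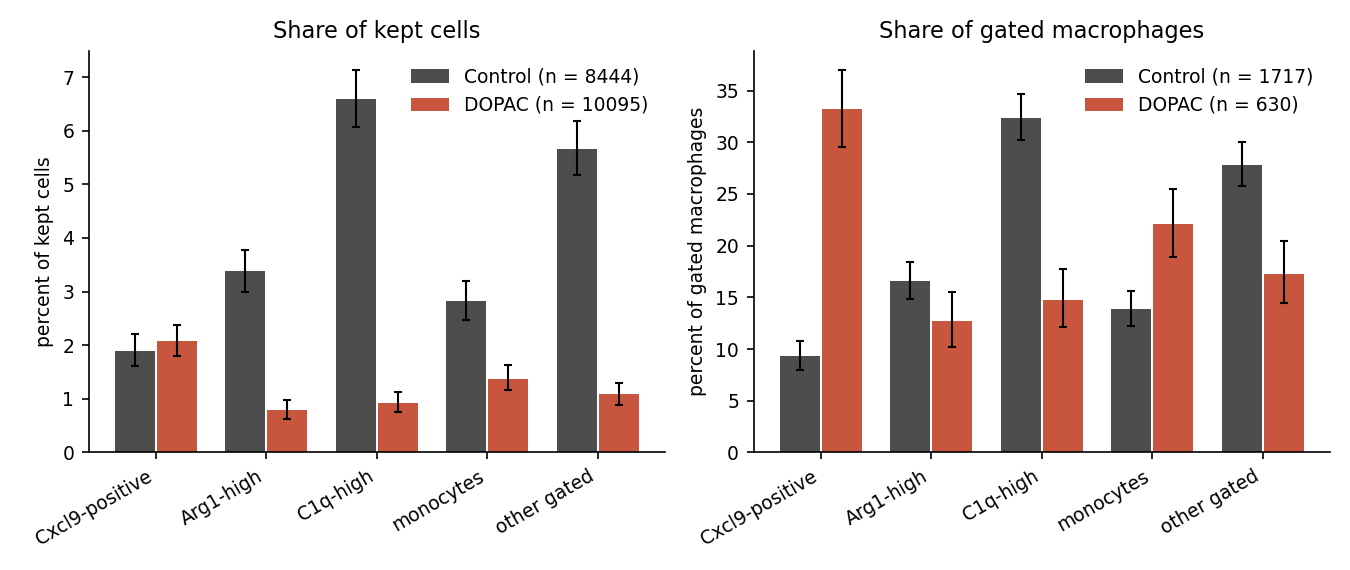
Bars give the percent of kept cells (left) and of gated macrophages (right) in each macrophage class, Control in grey and DOPAC in red, with exact 95% counting intervals; each bar is 1 library. Cxcl9-positive cells are 1.89% and 2.07% of kept cells but 9.32% and 33.2% of gated macrophages.

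The other classes of gated macrophages took smaller shares of the kept DOPAC cells. C1q-high macrophages (at least 5 UMIs per 10000 of C1qa, C1qb and C1qc, below the Cxcl9 and Arg1 limits) made up 6.58% (6.06 to 7.13) in Control and 0.921% (0.744 to 1.13) in DOPAC. Arg1-high macrophages made up 3.38% in Control and 0.792% in DOPAC. Monocytes (at least 3 per 10000 of Ly6c2, below the C1q, Cxcl9 and Arg1 limits) made up 2.82% (2.48 to 3.19) in Control and 1.38% (1.16 to 1.62) in DOPAC. Among gated macrophages, however, monocytes took a larger share in DOPAC, with 13.9% (12.3 to 15.6) in Control and 22.1% (18.9 to 25.5) in DOPAC. There C1q-high macrophages were 32.4% and 14.8%, and Arg1-high macrophages 16.6% and 12.7%. In a sorted sample fewer macrophages and more of other cells cannot be told apart.

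Free RNA can add to such a gate, and the share of T cells that reach its Cxcl9 level differed between the libraries. Among cells with Cd3 RNA and no Csf1r, which should not make Cxcl9, 1 of 752 Control cells (0.133%) and 165 of 3936 DOPAC cells (4.19%, 3.59 to 4.87) had 3 per 10000, at median depths of 6118 and 4157.5 UMIs. Among NK cells the shares were 0.541% and 6.06%, at 5961 and 3046 UMIs. Both lie below the shares of gated macrophages. Summed, Cxcl9 stood at 7.07 and 56.7 CPM in T cells, against 2543 and 3176 CPM in the members. Its part in the members was not tested.

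Most Cxcl9 RNA of either library lay outside the gate. The members held 31.6% of the 15998 Cxcl9 UMIs of kept Control cells and 20.5% of the 15575 of DOPAC cells. Cells with the macrophage genes that were left out for a dendritic gene held 21.5% and 5.95%, and those left out for Cd3 or Cd79a 14.4% and 17.5%. Cells without the macrophage genes but with a dendritic gene held 19.95% and 18.2%. Those without the macrophage genes but with Cd3 or Cd79a held 2.75% in Control and 19.1% in DOPAC, the largest share outside the gate there. Cells with none of these genes held 5.63% and 18.2%. These sets differ widely in size. In the order given, those outside the gate were 935, 674, 1427, 2334 and 1357 of 8444 kept Control cells. In DOPAC they were 148, 490, 650, 5657 and 2520 of 10095 kept cells. The members were 160 and 209 cells.

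Within the members the Cxcl9 level ran over a wide range, from 3.05 to 293 UMIs per 10000 in Control with a median of 14.2, and from 3.04 to 252 in DOPAC with a median of 18.01. Between 3 and 10 per 10000 lay 57 Control and 61 DOPAC cells, between 10 and 30 lay 63 and 80, and 30 or more was reached by 40 and 68. Just inside the threshold, from 3 to 6, were 34 Control and 31 DOPAC cells with Gbp2 at 279 and 446 CPM. Just outside, above 0 and below 3, were 194 and 48 cells with Gbp2 at 101 and 268 CPM. For Arg1, 4 members of each library lay from 2 to 5 per 10000, and 3 Control and 1 DOPAC cell lay from 5 to 10.

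Some genes that the rule did not use went with the Cxcl9 level of the members. In Control, Cxcl10 stood at 930.2, 2289 and 3656 CPM in the 3 bands of increasing Cxcl9, and in DOPAC at 1067, 1998 and 2902 CPM. Gbp2 stood at 393, 930.01 and 1748 CPM in Control and at 599, 820.4 and 1368 CPM in DOPAC. In the lowest band DOPAC lay higher and in the highest band Control lay higher, for both genes. Acod1 followed the same order, at 702 and 974 CPM in the lowest and 1529 and 1105 CPM in the highest band. Cd274, which encodes the checkpoint ligand PD-L1, went from 615 to 1025 CPM in Control and from 647 to 842 CPM in DOPAC. Other genes did not follow throughout. In DOPAC, Cfb stood at 162, 80.2 and 165 CPM and Isg15 at 692, 580 and 928 CPM in the 3 bands, though both rose in Control. H2-Aa went from 3033 to 2735 CPM in Control and from 2748 to 4016 CPM in DOPAC. Macrophages without a Cxcl9 UMI differed more between the libraries, with Gbp2 at 89.4 and 436 CPM. Their median depths were 11417 and 3805 UMIs, and a low Cxcl9 level could be missed more often at lower depth. In DOPAC their Gbp2 level was above the 268 CPM of cells above 0 and below 3. The part of depth in these differences was not tested.

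**Figure D2:**
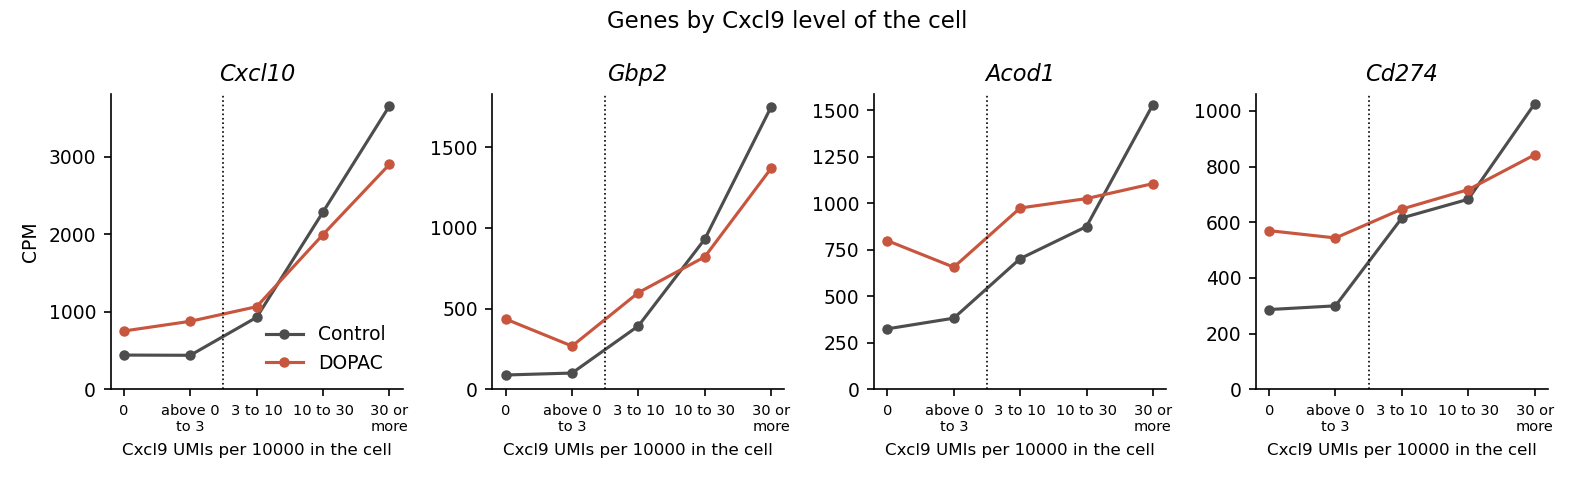
CPM of 4 genes in gated macrophages below the Arg1 limit, grouped by the cell's Cxcl9 UMIs per 10000; each point sums the cells of 1 library, grey Control and red DOPAC, and the dotted line is the member threshold. Left of the line DOPAC lies higher, with Gbp2 at 436 against 89.4 CPM where no Cxcl9 was found, at median depths of 3805 and 11417 UMIs. In the band of 30 or more Control lies higher for all 4 genes.

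Members held both cells with Ly6c2 RNA and cells with C1q RNA. By C1q (at least 5 per 10000) and by Ly6c2 (at least 3 per 10000), a marker of classical monocytes, 55 Control members (34.4%) had Ly6c2 alone, 36 (22.5%) C1q alone, 22 (13.8%) both and 47 (29.4%) neither. In DOPAC 79 (37.8%) had Ly6c2 alone, 30 (14.4%) C1q alone, 47 (22.5%) both and 53 (25.4%) neither. The DOPAC share minus the Control share was -8.15 points for C1q alone (-16.3 to -0.236) and 8.74 points for both (0.695 to 16.3). These intervals count cells of 1 library against 1 and are no test of the treatment. Cxcl10 was highest in cells with Ly6c2 alone, at 3096 CPM in Control and 2444 CPM in DOPAC, and lowest in cells with both, at 1136 and 1456 CPM.

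Between the libraries the leading interferon gamma genes of the members differed little. Of 8089 genes with at least 20 UMIs in both sums together, 1022 (12.6%) were at least 1.5-fold higher in DOPAC members and 1180 (14.6%) at least 1.5-fold lower, with a median log2 ratio of -0.01. The ratio of DOPAC over Control was 1.00 (0.924 to 1.08) for Gbp2, 0.949 (0.899 to 1.00) for Cxcl10, 1.07 (0.991 to 1.15) for Acod1 and 0.998 (0.804 to 1.24) for Cfb. Cd274 stood at 739.8 and 737 CPM. Of the 6 markers Ly6i passed 1.5-fold, with a ratio of 2.04 (1.69 to 2.47); it was also at least 2-fold higher in DOPAC T cells and NK cells, and its log2 ratio was 0.61 in place of 1.03 with cells thinned. Cxcl9, which the rule used, had a ratio of 1.25 (1.19 to 1.31). The rule asked the same Cxcl9 minimum of both libraries, and Cxcl10, Gbp2, Acod1 and Cd274 went with Cxcl9 among the members. Their like levels therefore describe cells chosen alike, and how far the rule set them was not tested.

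The neighbouring classes carried more of these genes in DOPAC. Gbp2 stood at 63.1 CPM in Control and 251 CPM in DOPAC Arg1-high macrophages, at 57.6 and 246 CPM in C1q-high macrophages and at 193 and 445 CPM in monocytes. Acod1 stood at 428 and 1011, 240.5 and 618 and 499 and 900.03 CPM in the same classes. The members' Gbp2 level was 16.2 times that of C1q-high macrophages in Control and 3.79 times in DOPAC. Cxcl9 separates these classes by rule, so such ratios are descriptions.

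**Figure D3:**
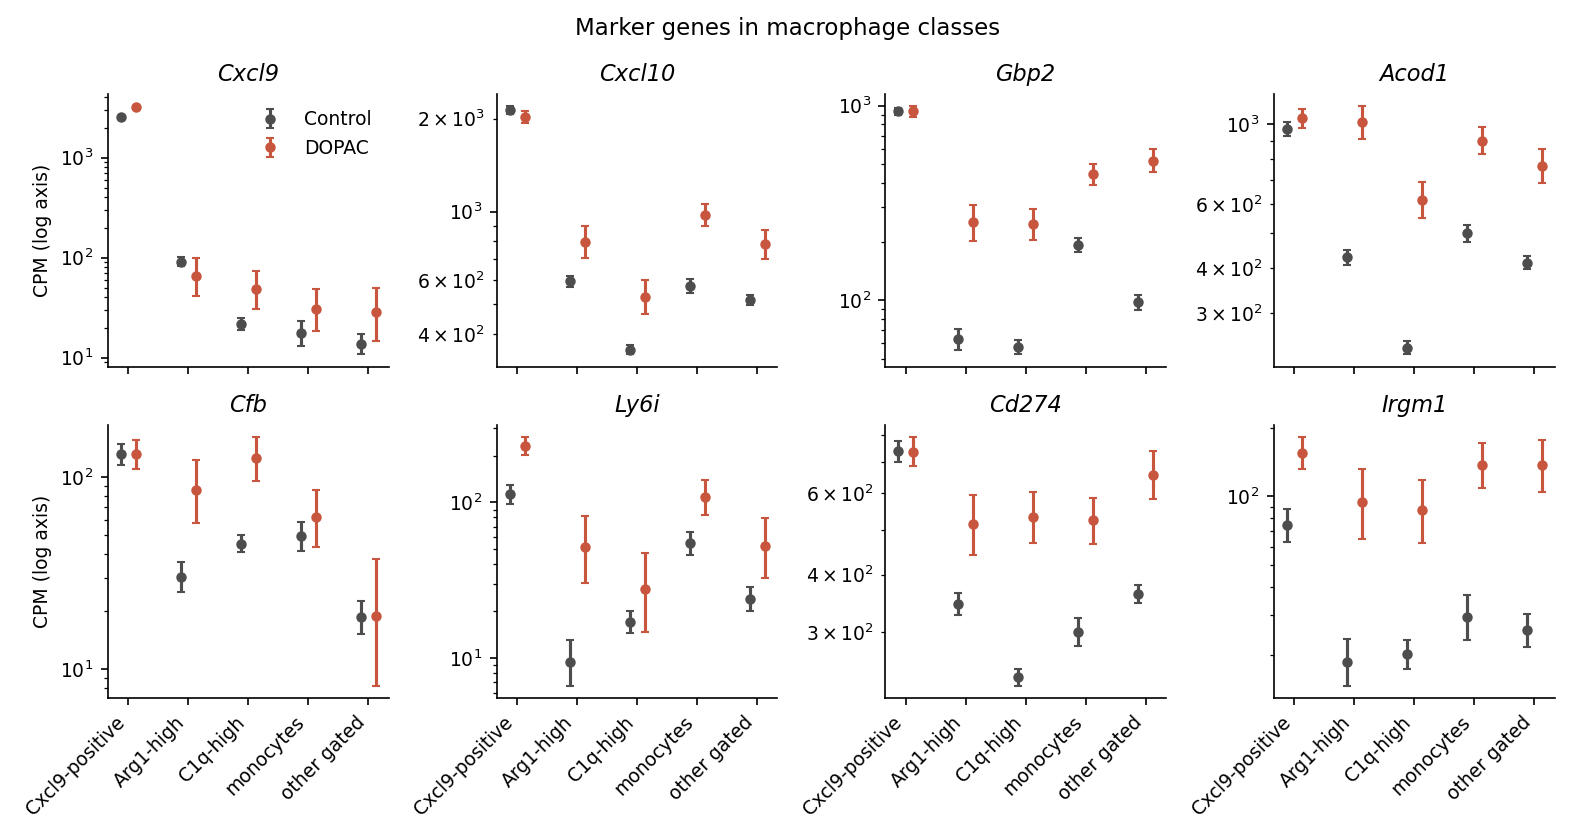
CPM on a log axis of 8 genes in 5 macrophage classes, 1 point per library (grey Control, red DOPAC) with 95% Poisson counting intervals. In Cxcl9-positive cells Cxcl10, Gbp2, Acod1, Cfb and Cd274 lie at nearly the same height in both libraries, while Gbp2, Acod1, Cd274 and Irgm1 lie higher in DOPAC in each of the other classes.

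Immunity-related GTPases had the largest median difference of the interferon lists. Of 8 measured, 6 were at least 1.5-fold higher in DOPAC members and none lower, with a median log2 ratio of 1.17. Irgm1, which acts in autophagy and vacuole control, stood at 74.4 CPM in Control and 155 CPM in DOPAC members, a ratio of 2.09 (1.66 to 2.63). Iigp1, which coats vacuoles, stood at 73.4 and 184 CPM, and its log2 ratio of 1.33 was 0.86 with cells thinned. Tgtp2 stood at 10.1 and 32.9 CPM. Tgtp1 and Tgtp2 are near-identical copies, and how reads were split between them is uncertain. Ifi47 and Igtp stayed within 1.5-fold, at 179.5 and 207 CPM and at 65.4 and 71.7 CPM. The list's medians were 2.20 in Arg1-high macrophages, 2.25 in C1q-high macrophages and 1.95 in monocytes. Over all genes, 24.5%, 23.9% and 15.6% were higher and 15.3%, 16.8% and 19.2% lower in these 3 classes.

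Guanylate binding proteins were split at the gate used. Of 9 measured, 3 were at least 1.5-fold higher in DOPAC members and none lower, with a median log2 ratio of 0.41. With at least 3 Cxcl9 UMIs required of each cell, 7 of 9 were higher and none lower (median 0.76). Gbp4 stood at 129 and 243 CPM, while Gbp2, Gbp3, Gbp5 and Gbp7 were within 1.5-fold. Gbp2b, a close relative of Gbp2 whose reads may be hard to tell from it, stood at 8.05 and 63.8 CPM on 16 UMIs in 9 Control cells and 64 UMIs in 32 DOPAC cells. Its log2 ratio was 2.92, and 1.93 with cells thinned. In the other classes the list was higher for 6 of 8 (Arg1-high), 9 of 9 (C1q-high) and 8 of 8 (monocytes).

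Type I interferon genes, which encode antiviral proteins, were higher in DOPAC members for 10 of 29 and lower for 2, with a median log2 ratio of 0.37. Without the Csf1r condition 5 of 30 were higher and 3 lower (median 0.17). Stat2, a transcription factor of this response, stood at 61.9 CPM in Control and 106 CPM in DOPAC. Its partner Irf9 stood at 30.2 and 55.8 CPM, and Cmpk2 at 38.2 and 75.7 CPM. Isg15, a ubiquitin-like protein, went the other way, at 1312 and 725 CPM (log2 -0.85), as did Ifih1, a sensor of viral RNA, at 503 and 299 CPM. Outside the members the list was higher for 25 of 28 in Arg1-high macrophages, 26 of 30 in C1q-high macrophages and 20 of 28 in monocytes, and none of it was lower in these 3 classes.

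Against C1q-high macrophages of the same library, the members stood further apart in Control than in DOPAC. In Control 16 of 30 type I interferon genes were at least 1.5-fold higher in members than in C1q-high macrophages and 1 was lower (median log2 0.75), where 10.1% of all genes were higher and 22.6% lower. In DOPAC 1 of 29 was higher and 4 were lower (median -0.02), where 7.56% of all genes were higher and 17.5% lower. Guanylate binding proteins were higher for 9 of 9 in Control and 6 of 9 in DOPAC, with medians of 2.35 and 0.94. This difference between the libraries was not tested.

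Against Arg1-high macrophages, MHC class II genes, which present peptides to helper T cells, were higher in members for 8 of 9 in Control and 6 of 7 in DOPAC, with none lower. Of all genes 14.3% were higher and 14.4% lower in Control, and 17.0% and 20.8% in DOPAC. Glycolysis genes were lower for 10 of 14 and 12 of 14, and lipid-associated genes for 12 of 14 in both libraries. Against C1q-high macrophages, MHC class II genes were higher for 7 of 9 in Control and 1 of 7 in DOPAC, with none lower. The median log2 ratios were 0.68 and -0.11, and 10.1% and 7.56% of all genes were higher. Summed, MHC class II genes stood at 18377 and 16862 CPM in members and at 11886 and 18187 CPM in C1q-high macrophages. Against monocytes, monocyte genes were lower in members for 7 of 12 in both libraries. Mature macrophage genes were higher for 9 of 14 in Control and 6 of 13 in DOPAC. Of all genes 10.2% were higher and 9.3% lower than in Control monocytes, and 11.8% and 10.2% than in DOPAC monocytes. The monocyte class was chosen for high Ly6c2 and low C1q RNA, whereas members had no limit on either. The choice of this class favoured these directions of both lists, and how far it set them was not tested.

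**Figure D4:**
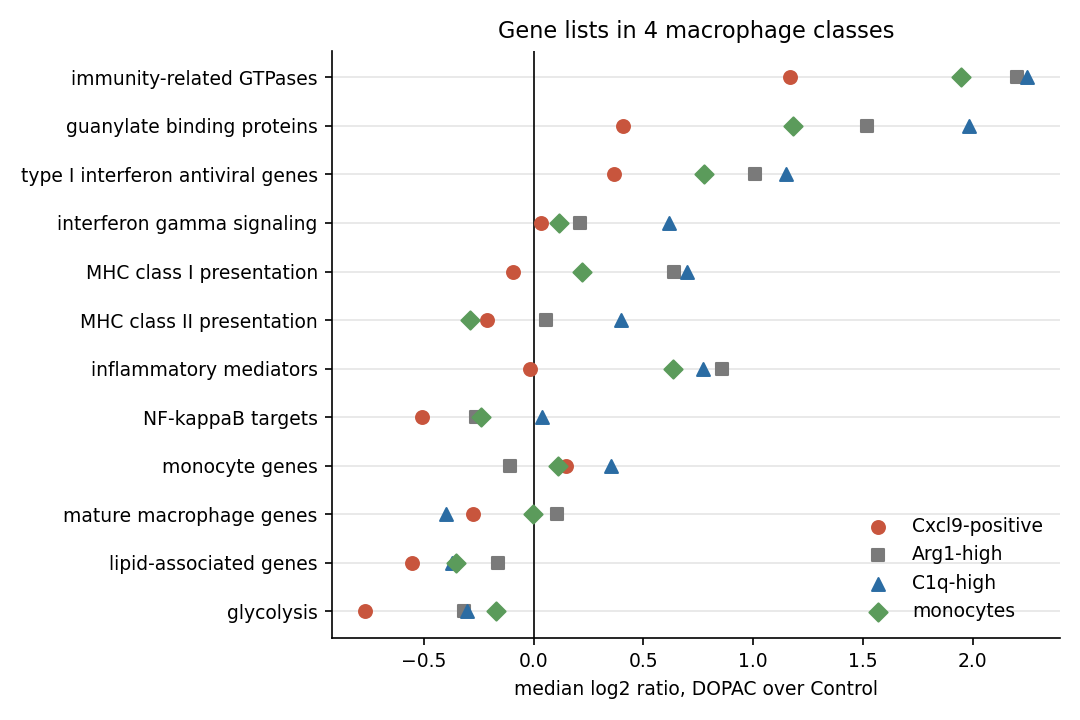
Median log2 ratio of DOPAC over Control for 12 gene lists (one per line) in 4 macrophage classes (symbols); each value compares 1 library with 1 library. In the 3 interferon-induced lists at the top the Cxcl9-positive cells lie lowest of the 4 classes, with 1.17, 0.41 and 0.37, and so does their glycolysis list, at -0.77.

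Of the genes that carry the interferon gamma signal, 1 of 12 was higher in DOPAC members and 3 were lower, with a median log2 ratio of 0.04. With at least 3 Cxcl9 UMIs required of each cell, 2 of 12 were higher and 1 lower (median 0.16). The receptor chain Ifngr1 stood at 103 and 104 CPM and the kinase Jak1 at 271 and 280.02 CPM, both within 1.5-fold. Nlrc5, the activator of MHC class I genes, was higher, at 126 and 245 CPM, a ratio of 1.94 (1.62 to 2.32). Socs3, a brake on cytokine signals, stood at 172 and 89.7 CPM and was at least 2-fold lower in DOPAC T cells and NK cells too. Ciita, the activator of MHC class II genes, stood at 74.9 and 41.9 CPM. Irf8, a lineage factor of mononuclear phagocytes, stood at 429.5 and 282 CPM and came within 1.5-fold with cells thinned (log2 -0.27 in place of -0.60).

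Antigen presentation differed little as a group. In MHC class I, 2 of 19 genes were higher and 2 lower (median -0.09). B2m, the light chain, stood at 2989 and 4699.6 CPM, and H2-Q6, which has close copies beside it, at 52.8 and 137 CPM. Psmb10 of the immunoproteasome was lower, at 334 and 169 CPM, and the heavy chain H2-K1 stood at 1247 and 1299 CPM. In MHC class II none of 8 was higher and 2 lower (median -0.21). H2-Aa stood at 2885 and 3025 CPM, and H2-DMb1, which helps load peptides, at 577 and 284 CPM. Of 11 checkpoint and costimulation genes none was higher and 2 lower (median -0.18); the costimulator Cd86 stood at 1219 and 1073 CPM and Cd40 at 215 and 199 CPM.

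Some cytokine genes were lower in DOPAC members. Of 20 inflammatory mediators 3 were higher and 5 lower (median -0.02). In the neighbouring classes 11 of 19 (Arg1-high), 11 of 21 (C1q-high) and 10 of 18 (monocytes) were higher, and 3, 2 and 0 lower. Of all genes 24.5%, 23.9% and 15.6% were higher there. Tnf stood at 1055 CPM in Control and 474 CPM in DOPAC members, a ratio of Control over DOPAC of 2.22 (2.01 to 2.46). Il1b stood at 5591 and 2971 CPM and Tgfb1 at 316 and 164 CPM. In Arg1-high macrophages Il1b was lower too, at 5055 and 2636 CPM, whereas Tnf stood at 524 and 648 CPM; the difference between the classes was not tested. The 3 genes higher in DOPAC members were Casp4, Fgl2 and Nos2. Casp4 stood at 218 and 339 CPM, and Fgl2, also higher in DOPAC T cells and NK cells, at 235 and 436 CPM. Nos2, which makes nitric oxide, rested on 11 UMIs in 4 Control cells and 30 UMIs in 8 DOPAC cells. Of 13 NF-κB targets none was higher and 4 lower (median -0.51), among them the inhibitor Nfkbia at 2442 and 1075 CPM, whose log2 ratio of -1.18 stands beside -0.95 in T cells.

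**Figure D5:**
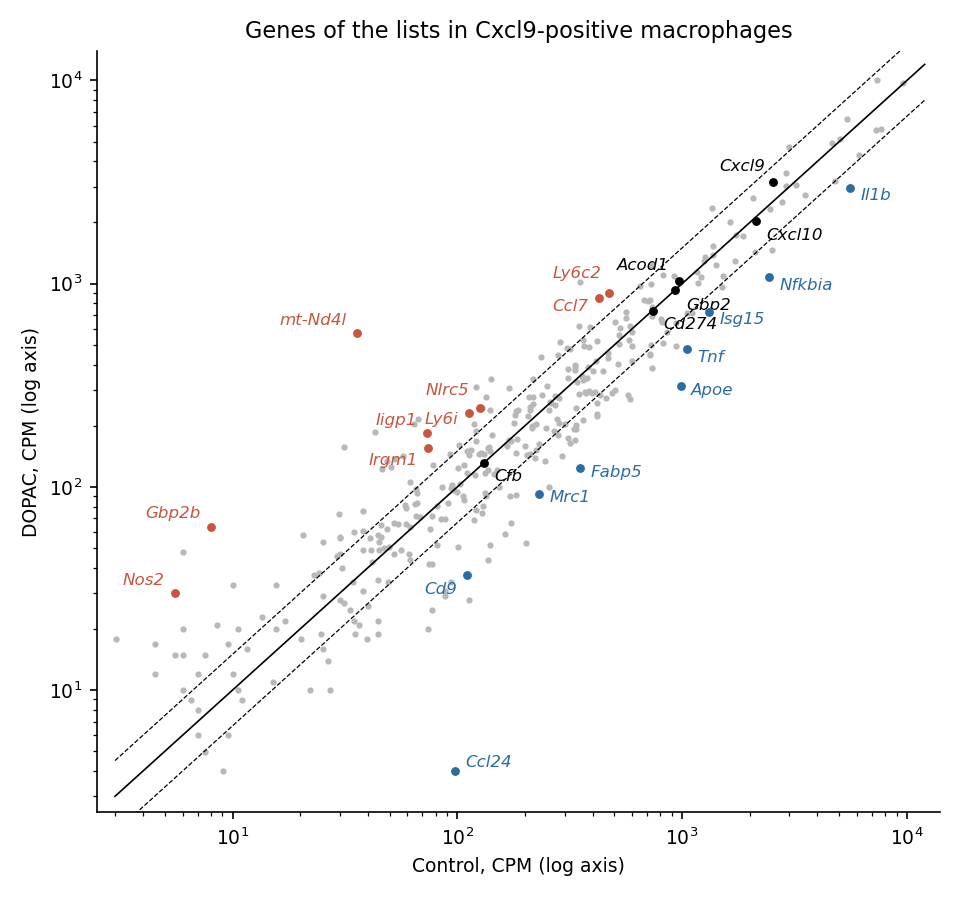
Each point is 1 gene of the lists, with its CPM in Control (x) and DOPAC (y) members on log axes; the solid line marks equal levels and the dashed lines 1.5-fold. Named genes past 1.5-fold are red (higher in DOPAC) or blue (lower), while Gbp2, Cxcl10, Acod1, Cfb and Cd274 lie near the solid line.

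Chemokines other than the CXCR3 ligands were higher for 2 of 15 and lower for 4, with a median log2 ratio of -0.36. When up to 1 UMI of each excluded gene was allowed, 5 of 16 were higher and 3 lower (median -0.10). Ccl7, which draws monocytes, stood at 426 CPM in Control and 847 CPM in DOPAC members, a ratio of 1.99 (1.80 to 2.19). Cxcl2, which draws neutrophils, stood at 7386 and 10052 CPM, within 1.5-fold. Ccl24 stood at 97.6 and 3.99 CPM, and 143 of its 194 Control UMIs lay in 1 cell. Ccl8 rested on 187 UMIs in 24 Control cells and 34 UMIs in 14 DOPAC cells; its log2 ratio of -1.44 became 2.71 when up to 1 UMI of each excluded gene was allowed.

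Lipid-handling genes were more often lower than higher, and for mature macrophage genes this depended on the gate. Of 14 mature macrophage genes 3 were higher and 5 lower (median -0.28). When up to 1 UMI of each excluded gene was allowed, 3 of 14 were higher and 3 lower (median 0.06). Lower in the other classes were 4 of 14 (Arg1-high), 7 of 16 (C1q-high) and 2 of 12 (monocytes). Higher there were 4, 0 and 1. Apoe, which carries lipids, stood at 986 CPM in Control and 313 CPM in DOPAC members, a ratio of Control over DOPAC of 3.15 (2.80 to 3.56). In T cells it stood at 63.6 and 8.67 CPM, and in monocytes at 855 and 223 CPM. After thinning, 57.5% and 33.2% of members had a UMI of Apoe. The shares were 78.1% and 49.3% of Arg1-high and 74.3% and 46.7% of C1q-high macrophages. The mannose receptor Mrc1 stood at 231 and 92.7 CPM, and Maf, a transcription factor of resident macrophages, was higher, at 169 and 308 CPM. Of 13 lipid-associated genes none was higher and 5 lower (median -0.55). In the other classes 3 (Arg1-high), 5 (C1q-high) and 4 (monocytes) of 14 were lower and 0, 0 and 3 higher. Of all genes 15.3%, 16.8% and 19.2% were lower in these classes, and 14.6% in members. Fabp5, a fatty acid carrier, stood at 352 and 124 CPM, and its log2 ratio of -1.50 was -0.82 when up to 1 UMI of each excluded gene was allowed. The tetraspanin Cd9 stood at 111 and 36.9 CPM. The lipid receptor Trem2 stood at 76.9 and 24.9 CPM and was at least 2-fold lower in DOPAC T cells and NK cells too.

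Monocyte genes were higher for 1 of 12 and lower for 4 (median 0.15), and with cells thinned 2 of 12 were higher and 2 lower (median 0.17). Ly6c2 stood at 475 CPM in Control and 899 CPM in DOPAC members, a ratio of 1.89 (1.72 to 2.07). At 2000 UMIs per cell 45.6% and 61.8% of members had a UMI of it, and without thinning 120 of 160 and 157 of 209. In T cells, some of which make Ly6c2, the thinned shares were 35.9% and 45.9%. They were 19.1% and 52.1% in Arg1-high macrophages and 18.4% and 51.1% in C1q-high macrophages. In monocytes, which were chosen for Ly6c2, it stood at 845 and 1216 CPM. Chil3, a chitinase-like protein, stood at 583 and 271 CPM, and Hp, haptoglobin, at 88.5 and 28.9 CPM.

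Glycolysis genes had the lowest median among the interferon, macrophage and metabolic lists. Of 14 measured 9 were lower in DOPAC members and none higher, with a median log2 ratio of -0.77. Gapdh stood at 2517 CPM in Control and 1459.9 CPM in DOPAC members, Pkm at 942 and 493 CPM, Tpi1 at 419 and 224 CPM and Eno1 at 418 and 228 CPM. In T cells the log2 ratio of Gapdh was 0.65 and that of Pkm -0.13. The list was lower for 3 of 14 in Arg1-high macrophages, 5 of 14 in C1q-high macrophages and 1 of 14 in monocytes, with medians of -0.32, -0.30 and -0.17. Of 20 nuclear genes of the respiratory chain 3 were higher and 5 lower (median -0.14).

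Targets of NRF2, a factor that answers electrophiles, were higher for 3 of 19 and lower for 1 (median 0.23). Of all genes 12.6% were higher and 14.6% lower in DOPAC members. In the other classes 5 (Arg1-high), 2 (C1q-high) and 7 (monocytes) of 19 were higher and 1, 2 and 4 lower. Of all genes 24.5%, 23.9% and 15.6% were higher there and 15.3%, 16.8% and 19.2% lower. Hmox1, which breaks down haem, stood at 347 CPM in Control and 617 CPM in DOPAC members, and 26.9% and 48.2% had a UMI of it at 2000 UMIs per cell, against 5.94% and 4.43% of T cells. Without thinning the members' shares were 63.1% and 63.6%. Monocytes had Hmox1 at 304 and 866 CPM. With thinning, 66.9% and 80.8% of Arg1-high and 39.2% and 44.4% of C1q-high macrophages had a UMI of it. Among catechol and monoamine genes Aldh2, an aldehyde dehydrogenase, stood at 77.5 and 41.9 CPM, and its log2 ratio of -0.86 was -0.15 with cells thinned. None of the dopamine receptor genes reached 20 UMIs.

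Among genes with at least 200 UMIs, leaving out those that moved alike in T cells and NK cells, Ccdc162 had the highest ratio, at 43.3 and 186 CPM. Its log2 ratio of 2.10 stands beside 2.35, 2.89 and 2.76 in Arg1-high macrophages, C1q-high macrophages and monocytes. Klf4, a transcription factor of the monocyte lineage, stood at 63.9 and 203 CPM (log2 1.67, and 0.92 with cells thinned), and Nr4a2, an early response factor, at 121 and 311 CPM. The others of the 10 most raised were Kansl1l, the noncoding RNA Zfas1, Rabgap1l, H2-Q6, Iigp1, Impact and Hnrnph1.

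Of the 10 most lowered genes Slc7a2, a carrier of arginine, had the lowest ratio, at 113 CPM in Control and 27.9 CPM in DOPAC members (Control over DOPAC 4.06 (2.73 to 6.24)). Il17ra, a receptor of interleukin 17, stood at 139 and 51.8 CPM and the tubulin Tubb6 at 174 and 66.8 CPM. Saa3, an acute phase protein, rested on 272 UMIs in 16 Control cells and 44 UMIs in 3 DOPAC cells, and its log2 ratio of -1.61 was -0.34 from 6 Cxcl9 UMIs per 10000. Hp, Cd9, Fabp5, Fkbp8, Ccl8 and Snrpb were the others.

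RNA of other cell types differed between the libraries too. T-cell markers summed to 14.6 and 53.8 CPM in Control and DOPAC members, with Cd3d, Cd3e and Cd3g at 0 by the rule, and the 3 of 7 that reached 20 UMIs were all higher. Cytotoxic granule genes summed to 38.2 and 129 CPM, with Gzmb, a protease of killer cells, on 12 UMIs in 8 Control cells and 48 UMIs in 36 DOPAC cells. Red cell genes summed to 40.7 and 1.99 CPM, with 1 of 5 at 0 in Control and 3 of 5 in DOPAC. Dendritic genes summed to 71.9 and 61.8 CPM, NK genes to 61.9 and 63.8, B-cell genes to 57.3 and 52.8, neutrophil genes to 98.1 and 64.8 and melanoma genes to 16.6 and 12.0 CPM. The mitochondrial gene mt-Nd4l stood at 35.7 and 571 CPM and at 57.3 and 943 CPM in T cells. The part of such RNA in the differences between the members was not tested.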

How the data were processed

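Polyadenylated RNA of CD45+ tumor cells was measured in 1 Control and 1 DOPAC library. The authors deposited raw UMI counts per gene and barcode, not normalized, and the file headers name Cell Ranger 7.0.1. The build was GRCm38, per the submitters' processing notes. Counts were read, gated and thinned with numpy 2.4.6, scipy 1.17.1 and pandas 2.3.3. Doublets were scored with Scrublet in scanpy 1.11.5; its own threshold marked 4.01% of Control and none of the DOPAC cells, so the 870 DOPAC cells with the highest scores (8.62%) were taken there. UMIs were summed per class and library, and log2 ratios were taken with 1 count added to each sum. Intervals are Clopper-Pearson for shares, Newcombe for differences of shares and exact Poisson for CPM and ratios. Kept cells had medians of 9571.5 and 3677 UMIs, which limits low genes most in DOPAC. With 1 library per group no test was made. The calculation was tested on simulated data. Named genes are the markers and gate genes, up to 4 genes of each list with the most UMIs, up to 6 of each list whose counting interval lies beyond 1.5-fold, and the 10 most raised and 10 most lowered; other list genes that are named are examples chosen after their values were seen. The members and the 39 gene lists were chosen with earlier results of these data known. Alternatives changed the gate, doublets, filter, added count, depth and scaling (TMM, edgeR 4.0.16 in R 4.3.3). List genes whose symbol did not match 1 feature have no level here, but those with a RefSeq window count in the motif shares. Figures used matplotlib 3.10.9. Values of some list genes are not reported here.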

Additional observations from a re-analysis of the deposited data

Results flagged for a closer look

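Ccl8, a chemokine that draws monocytes and T cells, was lower in DOPAC than in Control Cxcl9-positive macrophages, with a log2 ratio of -1.44, and higher in Arg1-high macrophages, with 2.59, and in C1q-high macrophages, with 2.38. The opposite directions drew attention to it, and the difference between the classes was not tested. In the members it rested on 187 UMIs in 24 Control cells and 34 UMIs in 14 DOPAC cells, and its log2 ratio was 2.71 when up to 1 UMI of each excluded gene was allowed.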

How the results depend on the processing

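No paired analysis was possible because the groups share a single replicate number and hold 1 library each. The difference in share of gated macrophages was 17.3 points with at least 3 Cxcl9 UMIs and between 20.9 and 26.1 points under the other 9 settings. The difference in share of kept cells was -0.463 points (-0.876 to -0.0604) with at least 3 Cxcl9 UMIs. It was 0.646 (0.270 to 1.03) with cells thinned before the gate and 1.60 (1.11 to 2.09) without the Csf1r condition. Genes at least 1.5-fold higher and lower in DOPAC members numbered 346 and 410 from 100 UMIs, 3716 and 2490 with no filter, and 645 and 712 with cells thinned; 655 were lower with 5 counts added. The share of tested genes changed with the filter too. Higher genes were 8.53% of 4057 from 100 UMIs and 24.8% of 14965 with no filter, against 12.6% of 8089 in the main setting. Lower genes were 10.1% and 16.6%, against 14.6%. The cause of these changes was not tested. Higher genes were 46.4% of all calls, 63.9% with 5 counts added and 59.9% with no filter. Lower genes numbered 8 of 13 lipid-associated genes with at least 3 Cxcl9 UMIs, and 7 of 13 NF-κB targets from 6 Cxcl9 UMIs per 10000. Of inflammatory mediators 1 of 18 were higher and 3 lower (median -0.24) with cells thinned, and of respiratory chain genes 1 of 20 were higher and 6 lower (median -0.22) with at least 3 Cxcl9 UMIs. Allowing up to 1 UMI of each excluded gene and dropping the Csf1r condition were chosen after seeing the data. The former turned the log2 ratio of Ccl8 to 2.71 and that of Ccr9 to -0.60, and requiring 3 Cxcl9 UMIs turned that of Mt2 to -0.95. Of 2612 values of named genes under alternatives, 2417 lay within the counting interval of the ratio, 192 outside it in the same direction or uncalled, and 3 were reversed.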
